A study of Oreochromis niloticus with 8 samples.

Results

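The enzymes described here make and remodel membrane phospholipids. They were a list of 10 genes (chka, pcyt2, cept1, ptdss1, ptdss2, lpin1, lpin2, pnpla6, lpcat3 and lpcat4), and members were the rows of the expression files whose identifier equals a listed name. That rule found 8 of the 10 among 29533 genes listed. The other 2, chka and lpcat4, are carried in the files as LOC100694841 and LOC100693391, which the RefSeq gene table of assembly O_niloticus_UMD_NMBU names chka and lpcat4. They are described beside the 8 and counted separately.

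Polyadenylated RNA of the midbrain of Nile tilapia (Oreochromis niloticus), a warm-water fish, was sequenced in 8 libraries. The control group (normothermy) and the cold-exposed group hold 4 libraries each. The labels state neither strain, sex nor age, nor the water temperature, the length of exposure or whether fish were pooled. Levels are the values that the authors deposited, described as TPM (transcript abundance), a unit scaled by gene length and to a fixed total per library. In that unit levels of different genes can be compared, and absolute depth is unknown. No label ties each library to its own fish. The spread behind every p-value is therefore that between libraries and may be technical.

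Phosphatidylcholine and phosphatidylethanolamine, the main phospholipids of animal membranes, are made in parallel branches. A kinase phosphorylates choline or ethanolamine, a cytidylyl transferase activates it, and a phosphotransferase joins it to diacylglycerol. Phosphatidylserine is made from the finished lipids by exchange of the head group, lipins supply diacylglycerol from phosphatidic acid, and hydrolases and acyltransferases then exchange acyl chains. Brain tissue is rich in phosphatidylserine and in polyunsaturated phospholipids, and ectotherms are known to alter membrane lipids with temperature. The enzyme roles given below are those established in mammals.

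Depending on the library, 17842 to 18506 genes reached 1 TPM. The first principal component of log2(TPM + 1) (43.4% of the variance) set the groups apart, with control libraries between 27.4 and 36.9 and cold libraries between -32.6 and -31.1. On the second (16.9%), control 4 (-31.3) and cold 2 (-33.3) stood apart from the other libraries (-2.67 to 22.9). Results were therefore also computed without these 2 libraries. Of 10 genes listed as midbrain markers, led by gata3 and th, all were measured, 6 fell and none rose. Their summed level was 75.7 to 97.0 TPM in control and 49.7 to 65.7 TPM in cold. Whether each of these 10 genes, th included, marks midbrain in tilapia was not tested. The endothelial sum (6 markers, led by cldn5 and kdr; 3 fell, none rose) was also lower in cold without overlap, at 144 to 200.3 TPM against 100.2 to 133 TPM. Summed levels of markers of oligodendrocytes (mbpa, mpz), neurons (stmn2a, stmn2b), radial glia and astroglia (s100b, fabp7), microglia (apoeb, c1qb) and erythrocytes (alas2, slc4a1a) overlapped between groups. So did those of neighbouring tissues, namely hypothalamus (oxt, avp), pituitary (fshb, lhb), telencephalon (eomesa, eomes) and cerebellum (pvalb7, neurod1). Within these lists falls were called for 3 of 5 microglial, 2 of 8 neuronal, 2 of 8 radial glial and 1 of 5 pituitary markers tested. Falls were also called for 1 of 5 telencephalic and 1 of 7 cerebellar markers, and 1 cerebellar marker rose. None of the 8 oligodendrocyte, 7 hypothalamic and 2 erythrocyte markers was called. All these marker counts are to be read beside the shares over all genes tested, 23.6% called lower and 13.0% called higher. For 23.4% of all genes tested, every cold value lay below every control value. The microglial sum was mostly apoeb (1133 ± 230.3 and 1330.1 ± 70.6 TPM), while p2ry12, a receptor of microglia, fell by 3.01 on the log2 scale (limma adjusted p = 9.86e-06), being at 25.2 ± 4.67 TPM in control libraries and at 2.25 ± 0.589 TPM in cold ones. The other microglial falls were c1qb (32.7 ± 10.7 to 19.0 ± 4.53 TPM, limma adjusted p = 0.0373) and csf1r (13.3 ± 1.61 to 9.53 ± 0.967 TPM, limma adjusted p = 0.0110), and both missed the threshold without control 4 and cold 2, c1qb also under 7 other alternatives. The remaining microglial markers, apoeb (limma adjusted p = 0.151) and spi1 (11.8 ± 2.19 to 14.1 ± 1.07 TPM, 0.156), had higher means in cold and were not called. The hypothalamic sum ranged from 677 to 2924 TPM in control and from 1086 to 5373 TPM in cold. In whole tissue, fewer cells of a type and less RNA per cell cannot be told apart, and the part of tissue composition in the results below was not tested.

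The rows of chka (a choline kinase), ptdss2 (a phosphatidylserine synthase) and lpin1 (a lipin) rose to between 1.52 and 1.71 times the control mean in cold midbrain, and the shared phosphotransferase cept1 fell to 0.747 times. These folds belong to the single rows: other copies or isozymes of the same steps (chkb, ptdss1a, lpin1a) did not pass the test. Of the 8 genes matched by identifier, 3 rose (ptdss2, lpin1 and pnpla6), 1 fell (cept1) and 4 did not pass (ptdss1, lpin2, lpcat3 and pcyt2), by limma on log2(TPM + 1) at a Benjamini-Hochberg adjusted p under 0.05 over all genes tested. The called share, 50.0%, is to be read beside 36.7% of the 18863 genes tested, 13.0% called higher and 23.6% called lower. The members were chosen with earlier results of these data known, so neither this share nor the median below tests for enrichment. Of the 2 genes matched through the reference, chka rose and lpcat4 was too low to test. The median log2 change of the 8 was 0.08, beside -0.09 for all genes tested. Cold and control values did not overlap for the 4 called genes of the 8 and for chka, as for 36.9% of all genes tested (13.4% with cold above control, 23.4% with cold below). Without control 4 and cold 2 the same 5 genes were called, with log2 changes of 0.62 for chka, 0.77 for ptdss2, 0.71 for lpin1, 0.31 for pnpla6 and -0.50 for cept1.

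**Figure D1:**
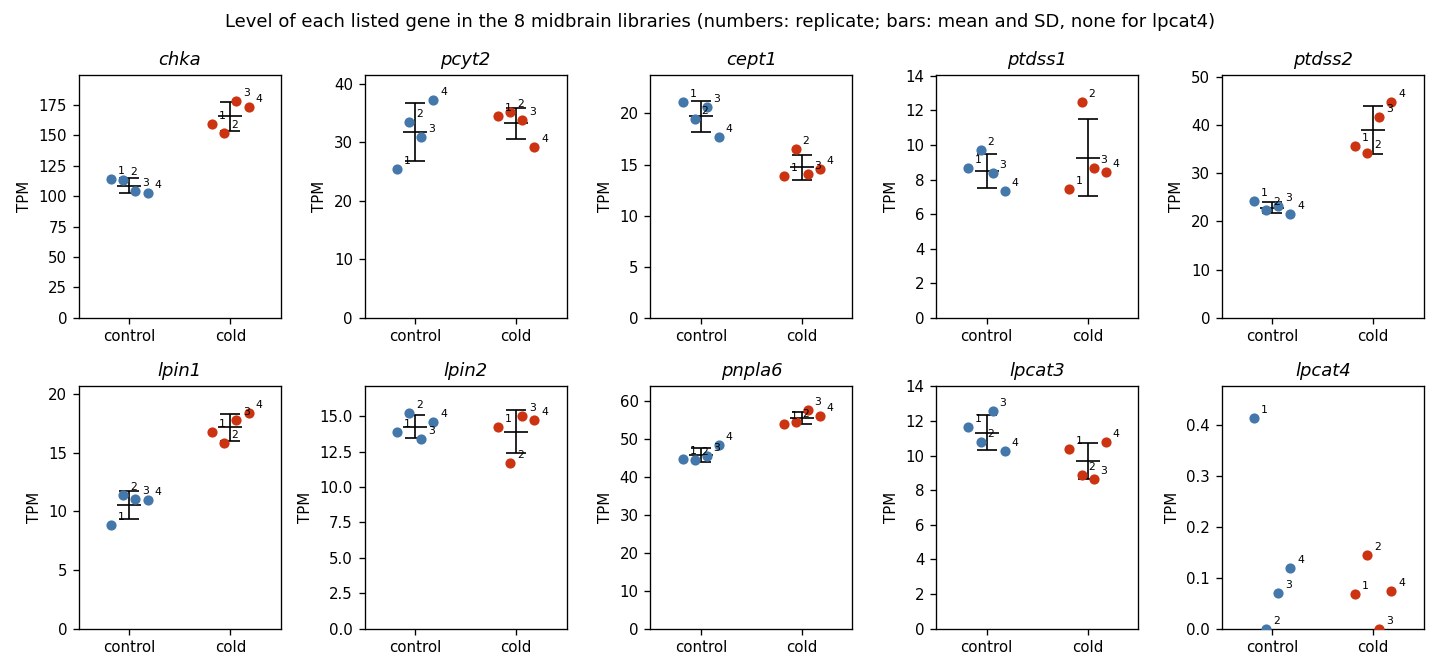
Level (TPM, linear axes from 0) of each listed gene in the 4 control and 4 cold libraries; points are libraries numbered by replicate, and bars are mean and SD, left out for lpcat4. All cold points lie above all control points for chka, ptdss2, lpin1 and pnpla6 and below them for cept1, and lpcat4 stays under 0.5 TPM.

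The first step of the choline branch showed the highest level among the listed genes. chka encodes choline kinase alpha, which phosphorylates choline and also ethanolamine. Its level was 114, 113, 105 and 103 TPM in control 1 to 4 and 159.8, 152, 178 and 173 TPM in cold 1 to 4. Every cold library was far above every control library, and each group was tight. With n = 4 libraries in both groups, the means (± SD) were 109 ± 5.81 TPM in control and 166 ± 12.1 TPM in cold. The log2 change was 0.60 ± 0.07 (SE; limma adjusted p = 0.000232; exact permutation p = 0.0286, two-sided, the smallest that 4 against 4 libraries allow). Its rise ranked 981 from the top of 18863 log2 changes.

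No change passed the test for pcyt2. This gene, the cytidylyl transferase that makes CDP-ethanolamine in the ethanolamine branch, measured 25.5, 33.4, 30.9 and 37.1 TPM in control 1 to 4 and 34.5, 35.2, 33.8 and 29.2 TPM in cold 1 to 4. The groups overlapped widely, and control 1 was the lowest library. The log2 change was 0.07 ± 0.11 (SE; limma adjusted p = 0.652), with a 95% interval of the fold from 0.881 to 1.25. Without control 1 its sign turned (-0.03).

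cept1, the choline/ethanolamine phosphotransferase that completes both lipids, fell. It measured 21.1, 19.5, 20.6 and 17.7 TPM in control 1 to 4 and 13.8, 16.5, 14.03 and 14.6 TPM in cold 1 to 4. The groups did not overlap, and the nearest values were those of control 4 and cold 2. The mean went from 19.7 ± 1.504 to 14.7 ± 1.22 TPM (SD, n = 4), a log2 change of -0.40 ± 0.08 (SE; limma adjusted p = 0.00539; exact permutation p = 0.0286), and the fold had a 95% interval of 0.668 to 0.863.

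Of the phosphatidylserine synthases, ptdss2 rose most of all listed genes. In mammals ptdss2 exchanges the head group of phosphatidylethanolamine and ptdss1 that of phosphatidylcholine. ptdss2 measured 24.3, 22.3, 23.2 and 21.6 TPM in control 1 to 4 and 35.5, 34.2, 41.7 and 44.7 TPM in cold 1 to 4. The controls lay within a narrow range, the cold libraries were more spread, and no values overlapped. The mean went from 22.9 ± 1.14 to 39.0 ± 5.0 TPM (SD, n = 4), a log2 change of 0.74 ± 0.09 (SE; limma adjusted p = 0.000428; exact permutation p = 0.0286). This was rank 652 from the top of all genes tested.

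ptdss1 measured 8.65, 9.73, 8.38 and 7.33 TPM in control 1 to 4 and 7.43, 12.5, 8.69 and 8.42 TPM in cold 1 to 4. Values overlapped, and cold 2 was the highest. The log2 change was 0.09 ± 0.15 (SE; limma adjusted p = 0.670), with a 95% interval of the fold from 0.843 to 1.35, and it was -0.05 without cold 2. A second copy, LOC100709544 (ptdss1a in the reference), carried most of the ptdss1 transcript. It measured 156 ± 9.53 TPM in control libraries, against 151 ± 14.1 TPM in cold ones, and did not pass (limma adjusted p = 0.620).

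Lipins convert phosphatidic acid into diacylglycerol, and lipin 1 is also known as a transcriptional coregulator. lpin1 measured 8.83, 11.4, 11.1 and 10.9 TPM in control 1 to 4 and 16.8, 15.8, 17.8 and 18.4 TPM in cold 1 to 4. Groups were clearly apart, and control 1 was the lowest library. The mean went from 10.6 ± 1.18 to 17.2 ± 1.14 TPM (SD, n = 4), a log2 change of 0.66 ± 0.09 (SE; limma adjusted p = 0.000845; exact permutation p = 0.0286).

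No difference was detected for lpin2 or for the other lipin copies. lpin2 measured 13.9, 15.2, 13.4 and 14.6 TPM in control 1 to 4 and 14.2, 11.7, 15.0 and 14.7 TPM in cold 1 to 4, with cold 2 below the other libraries. The log2 change was -0.04 ± 0.09 (SE; limma adjusted p = 0.768; 95% interval of the fold from 0.847 to 1.12) and turned to 0.05 after median-of-ratios scaling and to 0.04 without cold 2. LOC100705181 (lpin1a in the reference) measured 47.1 ± 2.51 and 52.0 ± 7.48 TPM (limma adjusted p = 0.335). LOC100711622, to which the reference gives the symbol lpin2, measured 39.5 ± 1.91 and 36.3 ± 2.30 TPM (limma adjusted p = 0.176). The identifiers ptdss1, lpin1, lpin2 and cept1 come from an older annotation than the reference. Which copy each of these identifiers stands for was not resolved, and the ratios and shares below carry that limit. The sequences of the copies were not compared. How the authors assigned reads that match more than 1 copy is not stated, which leaves the level of any one copy uncertain.

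Among hydrolases and acyltransferases, pnpla6 rose by a small and even amount. It encodes neuropathy target esterase, a hydrolase of phosphatidylcholine and lysophosphatidylcholine that neurons need. It measured 44.7, 44.3, 45.6 and 48.4 TPM in control 1 to 4 and 53.9, 54.5, 57.5 and 55.9 TPM in cold 1 to 4. Values did not overlap, and the spread within groups was the narrowest of the listed genes, with a coefficient of variation of 4.00% in control and 2.91% in cold. The log2 change was 0.27 ± 0.05 (SE; limma adjusted p = 0.00333; exact permutation p = 0.0286), from a mean of 45.8 ± 1.83 to 55.5 ± 1.62 TPM (SD, n = 4).

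lpcat3, the acyltransferase that puts polyunsaturated chains onto lysophosphatidylcholine, measured 11.6, 10.8, 12.6 and 10.3 TPM in control 1 to 4 and 10.4, 8.90, 8.66 and 10.8 TPM in cold 1 to 4. The groups overlapped, with cold 2 and cold 3 lowest. The log2 change was -0.21 ± 0.10 (SE; limma adjusted p = 0.125; exact permutation p = 0.114), and the fold had a 95% interval of 0.744 to 1.01. lpcat4, which encodes a lysophospholipid acyltransferase, was listed at 0 in control 2 and cold 3 and at 0.413 TPM or less in the other libraries. It was not tested.

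**Figure D2:**
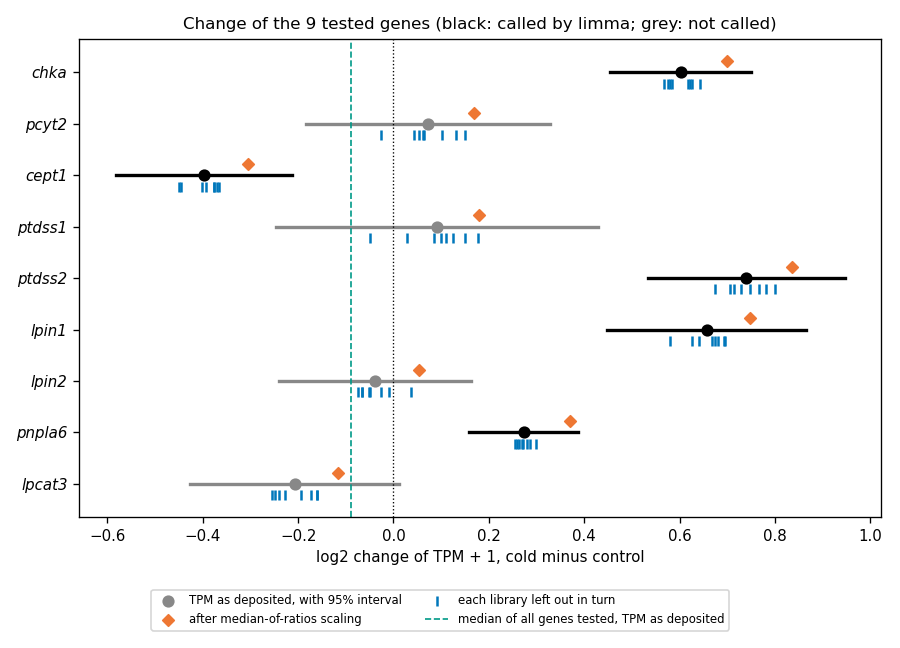
Change in cold of the 9 tested genes on the log2(TPM + 1) scale: circles are estimates with 95% intervals (black where called by limma), diamonds the estimates after median-of-ratios scaling, ticks the estimates with each library left out, and the dashed line the median of all genes tested (-0.09). chka, ptdss2, lpin1, pnpla6 and cept1 stay on their side of 0 in every setting drawn, and the estimates of pcyt2, ptdss1 and lpin2 lie on both sides.

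The order of levels shifted with these changes. In control it ran chka, pnpla6, pcyt2, ptdss2, cept1, lpin2, lpcat3, lpin1, ptdss1 and lpcat4, and neighbours overlapped only for lpcat3 with lpin1 and for lpin1 with ptdss1. In cold, ptdss2 stood above pcyt2 and lpin1 above cept1. These pairs overlapped in cold, as did cept1 with lpin2 and lpcat3 with ptdss1.

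Ratios of 2 genes within a library do not depend on how libraries are scaled, and 4 of 5 planned ratios could be computed. The ratio of lpcat3 to lpcat4 was left out because lpcat4 was at 0 in 2 libraries. Each computed ratio sets a called gene over one that was not called, and the members were chosen with earlier results known. The ratios therefore partly repeat the single-gene results and are no independent test. The lpin1 to lpin2 ratio was 0.637, 0.751, 0.827 and 0.747 in control 1 to 4 and 1.18, 1.35, 1.19 and 1.25 in cold 1 to 4. It was below 1 in every control and above 1 in every cold library (log2 difference 0.75; exact permutation p = 0.0286, 0.0762 adjusted over the 4 ratios). The ratio of ptdss2 to ptdss1 was 2.71 ± 0.284 in control and 4.41 ± 1.14 in cold (exact permutation p = 0.114, also 0.114 adjusted), and cold 2 (2.73) lay within the control range. The chka to pcyt2 ratio was 3.51 ± 0.718 and 5.03 ± 0.718, and that of cept1 to pcyt2 was 0.639 ± 0.149 and 0.446 ± 0.0463, each with an exact permutation p of 0.0571 (0.0762 adjusted) and overlapping groups. None of the 4 passed after adjustment. The exact permutation p cannot go below 0.0286 with 4 against 4 libraries. An adjusted p under 0.05 therefore needs most of the 4 ratios to reach that floor. The lpin1 to lpin2 ratio was at the floor, so its adjusted p says nothing about the size of its shift. With copies of the same gene summed, a setting added after the copies were seen, the ratio of ptdss2 to both ptdss1 rows was 0.129 to 0.151 in control and 0.209 to 0.320 in cold. The ratio of the lpin1 rows to the lpin2 rows was then 1.076 ± 0.0858 and 1.38 ± 0.106. Both gave an exact permutation p of 0.0286, the same floor (0.0571 adjusted over the 4 ratios).

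The share of a gene in the summed TPM of the enzymes of its step shows how far a change alters that step's transcripts. The enzymes of each step were taken from the pathway lists after the copies were seen, and shares are given as a description. The share of chka in chka and chkb together went from 68.5 ± 3.52% to 77.7 ± 1.94% (SD, n = 4), without overlap, while chkb (LOC100699097) measured 50.1 ± 6.27 and 47.5 ± 5.68 TPM. The choline kinase sum was 152 to 162 TPM in control and 199.7 to 233 TPM in cold. ptdss2 made up 12.2 ± 0.691% of the phosphatidylserine synthase sum in control and 19.7 ± 3.28% in cold, without overlap. That sum, mostly ptdss1a, was 188 ± 9.73 and 199 ± 11.1 TPM and overlapped between groups on the deposited scale.

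The lipin and phosphotransferase steps showed the same arrangement on the deposited scale, a changed share within an overlapping sum. Shares do not depend on how libraries are scaled, but sums do. The factors of median-of-ratios scaling, by which libraries are divided, were 1.03 to 1.05 in control and 0.950 to 0.994 in cold. That scaling lowers control sums and raises cold sums, so the overlap of both sums holds for the deposited scale only. lpin1 made up 9.48 ± 1.04% of the lipin sum in control and 14.4 ± 0.586% in cold, and the sum was 111 ± 1.02 and 119 ± 11.5 TPM. cept1 made up 32.7 ± 0.910% of the summed cept1, chpt1 and selenoi transcripts in control and 23.7 ± 2.69% in cold, without overlap. The partners are chpt1, the cholinephosphotransferase (28.8 ± 2.90 to 33.7 ± 4.04 TPM, limma adjusted p = 0.127), and selenoi, the ethanolaminephosphotransferase (11.7 ± 0.647 to 13.96 ± 1.17 TPM, limma adjusted p = 0.0503). After median-of-ratios scaling both passed as rises, and selenoi also did with the 5 TPM filter, a pseudocount of 0.1, robust fitting or cold 4 left out (limma adjusted p from 0.0143 to 0.163 over the alternatives). Their sum with cept1 was 60.3 ± 4.80 TPM in control and 62.4 ± 3.08 TPM in cold. The shares of pnpla6 (93.1 ± 1.31% and 94.4 ± 0.877% of pnpla6 and pnpla7b) and of lpcat3 (31.0 ± 1.26% and 29.0 ± 5.15% of lpcat1 to lpcat4) overlapped between groups. The lpcat sum leaves out mboat1, mboat2a and mboat2b of the same pathway list. Their control means were 27.0, 20.9 and 45.2 TPM and their cold means 28.7, 21.7 and 54.5 TPM, and only mboat2b was called. The lpcat3 share thus describes the lpcat genes alone.

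**Figure D3:**
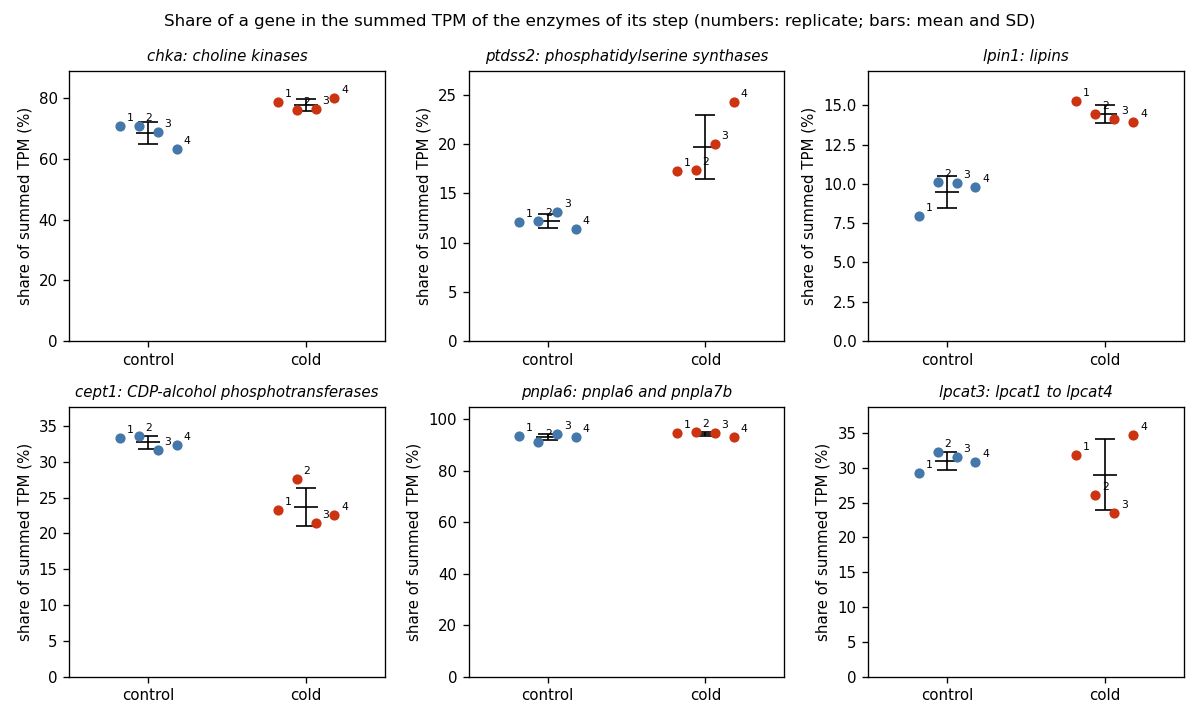
Share (%) of each named gene in the summed TPM of the enzymes of its step, by library, with linear axes from 0; points are libraries numbered by replicate, and bars are mean and SD. Cold libraries lie above control for chka, ptdss2 and lpin1 and below it for cept1, and the groups overlap for pnpla6 and lpcat3.

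Other genes of phospholipid metabolism were read from 8 lists sorted by role. In all lists together, the members included, 115 genes were tested, 13 rose (11.3%) and 35 fell (30.4%), with a median log2 change of -0.04. All genes tested showed 13.0% higher, 23.6% lower and a median of -0.09. After median-of-ratios scaling these counts were 26 and 22, so the excess of falls depended on the scaling, as it did over all genes (64.5% of calls lower as deposited, 47.4% after scaling, when 35.4% of 18837 genes tested were called, 18.6% higher and 16.8% lower). Counts and examples below exclude the members, and adjusted p are limma's over all genes.

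In the choline branch none of 13 rose and 6 fell (3 and 3 after scaling; 3 fell without control 4 and cold 2). They included the choline transporter genes flvcr2 (8.91 ± 1.40 to 4.70 ± 0.389 TPM, adjusted p = 0.00111), slc44a2 (159 ± 11.95 to 112 ± 10.3 TPM, 0.00144) and flvcr2b (13.7 ± 1.53 to 8.11 ± 1.68 TPM, 0.00558). Of the other choline transporter genes, slc44a1a (limma adjusted p = 0.314), flvcr1 (0.835) and slc5a7a (0.764) did not pass. slc44a1b was higher in cold without overlap (29.0 ± 1.19 to 32.1 ± 1.63 TPM). It did not pass as deposited (limma adjusted p = 0.0907) and passed as a rise after scaling (0.00813). pemt, which methylates phosphatidylethanolamine to phosphatidylcholine, fell from 6.76 ± 0.956 to 4.75 ± 0.494 TPM (0.0186), though it missed the threshold after scaling (0.0522) and without control 1 (0.0507), cold 3 (0.0511) or control 4 and cold 2 (0.0555). Of the cytidylyl transferase genes of this branch, pcyt1b fell (34.4 ± 2.23 to 29.1 ± 2.30 TPM, limma adjusted p = 0.0372) but not after scaling (0.179). The other, pcyt1aa, did not pass (22.3 ± 1.84 to 24.4 ± 1.03 TPM, limma adjusted p = 0.205) and passed as a rise after scaling (0.0441). chka was thus the only called rise among the 14 tested genes of the branch on the deposited scale. In the ethanolamine branch none of 7 was called, with ethanolamine kinase gene etnk1 at 137 ± 5.44 and 118 ± 13.1 TPM (0.0514), and 2 were higher after scaling. etnk1 passed as a fall without cold 3 or with the 5 TPM filter (0.00972 to 0.197 over the alternatives), and the alternatives in which selenoi passed are given above.

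In the phosphatidylserine list 1 of 6 rose and 1 fell (2 and 1 after scaling). prelid3b, whose product carries phosphatidylserine into mitochondria, rose from 11.1 ± 0.575 to 39.3 ± 3.85 TPM (log2 change 1.74 ± 0.08, adjusted p = 3.89e-06). osbpl8, which moves phosphatidylserine to the plasma membrane, fell from 30.9 ± 1.40 to 23.9 ± 1.98 TPM (0.00428). Of 20 genes of phosphatidic acid and diacylglycerol, 2 rose and 4 fell (4 and 4 after scaling; 2 fell in the whole list without control 4 and cold 2). cnep1r1, a subunit of the phosphatase that activates lipin, fell from 38.2 ± 0.777 to 25.3 ± 1.05 TPM (0.000105). ctdnep1, the other subunit of that phosphatase, went the other way (2.78 ± 0.554 to 3.61 ± 0.117 TPM). It did not pass as deposited (limma adjusted p = 0.0886) and passed as a rise after scaling (0.0414). The acyltransferase gene gpat3 fell from 19.9 ± 4.48 to 11.7 ± 1.26 TPM (0.00561). plpp3, a lipid phosphate phosphatase gene, fell from 136 ± 19.4 to 104 ± 7.77 TPM (0.0173) and was at 0.050015 without control 4 and cold 2. The phospholipase D gene pld2 rose from 18.4 ± 1.15 to 25.1 ± 1.51 TPM (0.00172).

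Some genes of cardiolipin synthesis and of plasmalogen synthesis were among the falls. Of 13 genes of the phosphatidylinositol and cardiolipin list, 2 rose and 6 fell (3 and 3 after scaling). ptpmt1, the mitochondrial phosphatidylglycerophosphate phosphatase gene, fell from 30.5 ± 2.88 to 16.6 ± 1.83 TPM (0.000274), pgs1, the synthase gene before it, from 12.8 ± 2.02 to 8.58 ± 0.168 TPM (0.00525), and taz, the symbol of the cardiolipin remodelling enzyme tafazzin (and in some annotations of a transcriptional coactivator), from 12.2 ± 1.21 to 8.04 ± 0.857 TPM (0.00318). The cardiolipin synthase gene crls1 (9.57 ± 1.20 to 8.68 ± 1.31 TPM, limma adjusted p = 0.441) did not pass. Neither did tamm41 of the same list (14.3 ± 1.34 to 12.4 ± 1.11 TPM, limma adjusted p = 0.134). pla2g15, a lysosomal phospholipase gene placed in this list, rose from 12.01 ± 1.501 to 17.4 ± 1.99 TPM (0.00685). The other rise, cds1, a CDP-diacylglycerol synthase gene (28.6 ± 1.67 to 35.3 ± 3.90 TPM, 0.0289), was not called with the replicate block or when control 1, control 2, control 4, cold 1, cold 3 or cold 4 was left out (0.00553 to 0.0775 over the alternatives). In plasmalogen synthesis none of 6 rose and 3 fell (1 and 3 after scaling). The 3 were gnpat (13.0 ± 0.521 to 8.06 ± 0.630 TPM, 0.000393) and agps (25.8 ± 0.430 to 18.3 ± 1.70 TPM, 0.00125), which act in peroxisomes, and far1, which supplies the fatty alcohol (9.27 ± 0.647 to 6.29 ± 0.824 TPM, 0.00494).

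In acyl chain remodelling and hydrolysis, 2 of 24 rose and 8 fell (2 and 4 after scaling). The falls dropped to 5 without control 3, cold 1, cold 2, cold 3 or control 4 with cold 2, and to 5 with the replicate number as a block. pla2g7, the platelet-activating factor acetylhydrolase gene, fell from 13.9 ± 0.620 to 9.27 ± 0.811 TPM (0.00109), pnpla8, a phospholipase A2 gene of mitochondria and peroxisomes, from 23.5 ± 0.7998 to 19.1 ± 0.679 TPM (0.00446), and the phosphodiesterase gene gdpd5b from 57.0 ± 9.08 to 40.2 ± 1.38 TPM (0.00807). mboat2b, a lysophospholipid acyltransferase gene, rose from 45.2 ± 1.87 to 54.5 ± 3.01 TPM (0.00785). Among 17 tested flippases, scramblases and lipid transporters, 2 rose and 6 fell (5 and 3 after scaling). mfsd2a, the lysophosphatidylcholine transporter gene of brain endothelium, rose from 17.8 ± 0.8291 to 41.7 ± 3.78 TPM (log2 change 1.18 ± 0.07, 1.82e-05), while the summed endothelial markers were lower in cold (given above). The flippase genes atp10a (10.7 ± 0.945 to 4.99 ± 0.317 TPM, 0.000111) and atp9b (27.8 ± 0.337 to 20.9 ± 1.83 TPM, 0.00241) and the scramblase gene tmem41b (16.6 ± 0.507 to 13.1 ± 1.13 TPM, 0.00964) fell.

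**Figure D4:**
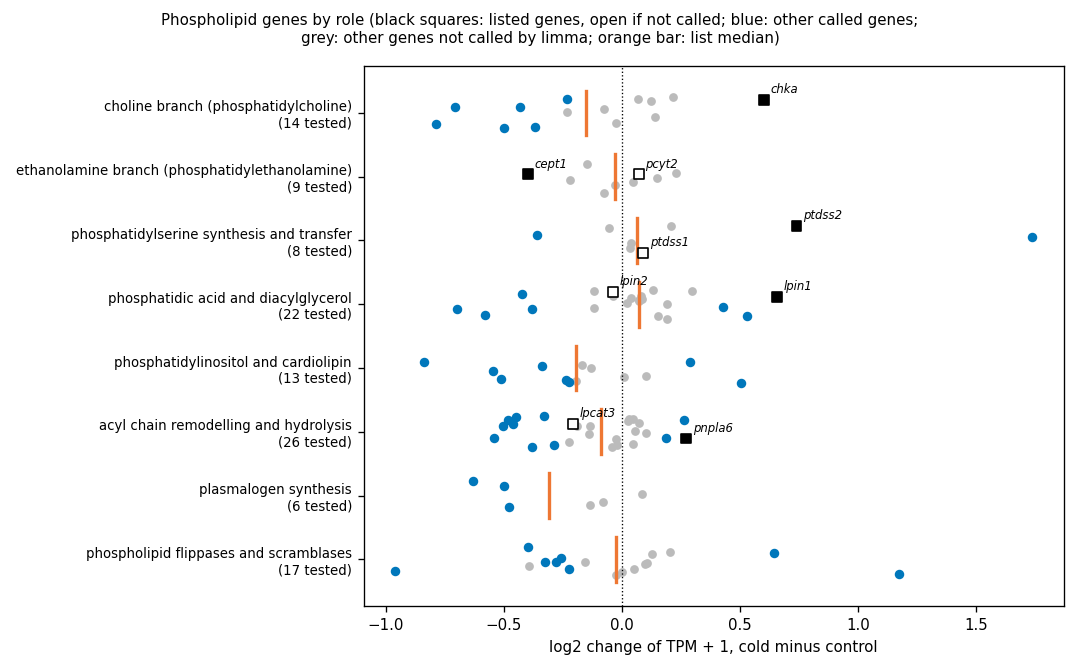
Change in cold (log2 of TPM + 1, cold minus control) of the tested genes of 8 phospholipid lists; squares are the listed genes (filled where called by limma), blue points other called genes, grey points genes not called, and bars the list medians. chka, ptdss2 and lpin1 lie far to the right of their lists' medians and cept1 to the left, and the largest change of all lists is that of prelid3b (1.74).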

How the data were processed

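The authors deposited 1 list of TPM values per library. The lists carry no header, and the unit is taken from their description as TPM. Each list sums to 1000000, as TPM does, but that sum alone does not show scaling by gene length. Per the submitters' processing notes, HISAT2 was used. No source used here names the counter, the build or the annotation, or says how strand and reads of several loci were handled, so coordinates are left out.

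Groups and replicate numbers came from the sample titles. Of 19370 identifiers starting with LOC, 19368 were found in the RefSeq table and 6153 received a symbol. limma 3.58.1 (R 4.3.3, trend on, robust off, two-sided) was fitted to log2(TPM + 1) of all 8 libraries, keeping genes whose control or cold mean was 1 TPM or more. The log2(TPM + 1) scale understates changes of low genes. A trial of the fit on simulated data used independent noise, few changed genes and larger changes than those of the listed genes. It therefore does not cover the setting of these data. Single values were compared by exact permutation over 70 splits. The members and lists were chosen with earlier results of these data known, and no list was tested as a set. Named pathway genes are the called ones of lowest p, up to 4 per list, and named markers the 2 highest per marker list. Copies, isozymes, etnk1, cds1, p2ry12, csf1r and the genes of the closing section were chosen after their values were seen. So were crls1, tamm41, ctdnep1, pcyt1b, pcyt1aa, spi1 and the choline transporter genes that were not called. Alternatives were another pseudocount (0.1), no filter or 5 TPM, median-of-ratios scaling, robust fitting, a replicate block and left-out libraries. The planned descriptions of protein and promoter sequence were not made here.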

Additional observations from a re-analysis of the deposited data

Results flagged for a closer look

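Of 62 groups of 4 values examined, 3 held a library far from the others, about as many as chance alone flags (1 in 20). The share of lpin1 in the lipin sum was 7.93% in control 1 against 9.81% to 10.1% in the other controls. Without control 1 the difference between groups in that share was 4.43 percentage points, against 4.94 with all libraries. The summed erythrocyte markers reached 112 TPM in cold 4 against 23.0 to 37.2 TPM in the other cold libraries. The summed pituitary markers reached 27.0 TPM in control 3 against 9.71 to 11.7 TPM in the other controls. Neither marker sum separated the groups, and their part in the results was not tested.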

How the results depend on the processing

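The 5 called genes (chka, ptdss2, lpin1, pnpla6 and cept1) kept their call and direction under all 15 alternatives, and none of the 4 others passed under any of them. Over the alternatives, log2 changes ranged from 0.57 to 0.70 for chka, 0.67 to 0.83 for ptdss2, 0.58 to 0.75 for lpin1, 0.26 to 0.37 for pnpla6 and -0.50 to -0.30 for cept1. Signs turned for genes that were not called, namely ptdss1 (-0.049 without cold 2 to 0.177 without cold 1; -0.11 without control 4 and cold 2), lpin2 (-0.074 without cold 3 to 0.036 without cold 2; 0.054 after median-of-ratios scaling; 0.048 without control 4 and cold 2) and pcyt2 (-0.026 without control 1 to 0.15 without control 4). Of 25 pathway genes named for the lowest p in their lists, 2 lost their call under some alternative, pemt and plpp3. Calls also changed for pathway genes named after their values were seen, under 7 of 15 alternatives for cds1 and 5 for agpat9l and selenoi. The calls of etnk1 and atp8a1 changed under 2, and those of cds2, atp9a and chpt1 under 1, while atp8b2 kept its call. For slc44a1b, ctdnep1, pcyt1b and pcyt1aa only median-of-ratios scaling is given, and it changed each call. Scaling by the median of ratios changed the pathway counts to 26 rises and 22 falls by raising all log2 changes, whose median over all genes shifted by 0.09. Leaving out 1 library gave 10 to 14 rises and 27 to 34 falls in the pathway lists and 5782 to 6387 calls over all genes. No pairing by replicate number was visible in the values. Same-numbered libraries correlated between -0.226 and 0.0542 in their deviations and none correlated best with its own number. These correlations cannot tell whether the libraries were paired by design. With the replicate block 5642 genes were called, and no listed gene changed its call. For the 4 ratios the block left the log2 differences at 0.67, 0.75, 0.53 and -0.50 and cannot give a p under 0.125, and 3 against 3 libraries cannot give one under 0.1. Depth is not known from TPM, so the level of lpcat4 has no counting limit.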

Other observations

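Isozymes of other steps, chosen after their values were seen, were called in opposite directions in cold, and most of these calls depended on the setting. The CDP-diacylglycerol synthase genes supply phosphatidylinositol and cardiolipin synthesis: cds1 rose from 28.6 ± 1.67 to 35.3 ± 3.90 TPM (limma adjusted p = 0.0289), and cds2, the more abundant, fell from 77.2 ± 4.49 to 65.4 ± 3.13 TPM (by limma, adjusted p = 0.0143). The rise of cds1 was not called under 7 of 15 alternatives, those named above (limma adjusted p from 0.00553 to 0.0775), and the fall of cds2 was not called after median-of-ratios scaling (0.140). Among glycerol-3-phosphate acyltransferases, gpat3 fell as given above, while agpat9l, named after an older symbol of gpat3, rose from 3.67 ± 0.540 to 5.83 ± 1.55 TPM (limma adjusted p = 0.0306). That rise was not called under 5 of 15 alternatives, with no filter and without control 1, control 2, control 3 or cold 3 (limma adjusted p from 0.0196 to 0.0775). Of the same step, gpam (67.0 ± 6.36 to 70.4 ± 4.76 TPM, limma adjusted p = 0.515) and gpat4 (33.4 ± 2.98 to 32.5 ± 3.08 TPM, 0.766) were more abundant and were not called. Nor was gpat2 (1.46 ± 0.420 to 1.79 ± 0.232 TPM, limma adjusted p = 0.351). Among flippase genes, atp8b2 rose from 14.1 ± 2.16 to 22.7 ± 4.93 TPM (limma adjusted p = 0.0112) and was called under all 15 alternatives, while atp8a1 (72.2 ± 4.10 to 60.2 ± 3.57 TPM, limma adjusted p = 0.0118) and atp9a (50.0 ± 2.34 to 42.7 ± 1.31 TPM, limma adjusted p = 0.0115) fell on the deposited scale and did not pass after median-of-ratios scaling (0.0968 and 0.129). atp8a1 was not called without control 4 and cold 2 either.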
